A study of Mus musculus with 11 samples.

Results

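Genes that mark cholinergic motor neurons were followed through RNA-seq of mice with a point mutation in Morc2a: Chat, Slc18a3, Slc5a7, Ache, Isl1, Isl2, Mnx1, Prph and Ret. They were chosen by name, for their known roles and with earlier results of these data known. They are 9 of the 55487 Ensembl identifiers in the deposited expression table. All 9 were found in the table, and all 9 passed the filter on low values in spinal cord. Spinal cord was sequenced as 3 libraries from Morc2a p.S87L heterozygotes and 3 from wild-type mice. MEF, a primary culture of fetal fibroblasts, was sequenced as 2 libraries from S87L heterozygotes and 3 from wild-type mice. All groups have the strain C57BL/6. S87L is a change of serine to leucine in MORC2A, a chromatin regulator with an ATPase domain, and the heterozygotes carry it on one allele. Age and sex are not given in the labels, which also do not tie each library to its own animal or culture. The p-values therefore cover only how far these libraries vary, and part of that may be technical. Values are FPKM, fragments per kilobase of gene length scaled to a read total, which allows levels of genes of unequal length to be compared. All coordinates are of the mouse build GRCm38.

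Motor neurons of the spinal cord signal to muscle with acetylcholine. CHAT makes it from choline and acetyl-CoA, the vesicular transporter SLC18A3 loads it into synaptic vesicles, acetylcholinesterase (ACHE) breaks it down in the cleft, and the choline transporter SLC5A7 returns the choline to the terminal. The homeodomain factors ISL1, ISL2 and MNX1 set motor neuron identity in the embryo, and their genes remain active at lower levels later on. Peripherin (PRPH) is an intermediate filament of neurons with peripheral axons, and RET is the receptor kinase for ligands of the GDNF family. None of the 9 genes is exclusive to motor neurons: cholinergic interneurons and preganglionic autonomic neurons also make acetylcholine, and sensory neurons express Prph, Ret and Isl1.

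Chat and Slc18a3 form one locus, in which the whole Slc18a3 gene lies inside the first intron of Chat. Chat (ENSMUSG00000021919) spans chr14:32408203-32465989 on the minus strand in 17 exon blocks, and the single exon of Slc18a3 (ENSMUSG00000100241) spans chr14:32462438-32464850 on the same strand. The exon of Slc18a3 starts 956 bases after exon block 1 of Chat ends, and block 2 follows 395 bases after Slc18a3. The 2 genes share 0 exon bases in the annotation, so reads within their exons can be assigned to one or the other. The sequences before their start sites are shown because these neighbours had differences of opposite sign in S87L cord, neither of them past the threshold used here, as described further on. They are from RefSeq for GRCm38.p6, run 5′ to 3′ from 250 bases before the RefSeq start to 50 after it, and have capitals at CCAAT and GGGCGG or their reverse complements.
Chat (chr14:32465860-32466159, minus strand): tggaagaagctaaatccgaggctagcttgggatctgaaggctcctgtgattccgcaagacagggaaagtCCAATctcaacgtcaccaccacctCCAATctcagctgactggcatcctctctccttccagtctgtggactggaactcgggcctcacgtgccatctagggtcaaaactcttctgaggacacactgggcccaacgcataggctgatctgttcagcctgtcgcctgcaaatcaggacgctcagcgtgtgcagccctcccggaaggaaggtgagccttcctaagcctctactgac
Slc18a3 (chr14:32464801-32465100, minus strand): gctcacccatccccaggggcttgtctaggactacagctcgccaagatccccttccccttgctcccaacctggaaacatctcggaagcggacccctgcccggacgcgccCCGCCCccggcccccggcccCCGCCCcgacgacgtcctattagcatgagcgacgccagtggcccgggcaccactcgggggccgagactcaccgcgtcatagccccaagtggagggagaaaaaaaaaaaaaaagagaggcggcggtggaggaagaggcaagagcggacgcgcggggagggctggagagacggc
The Chat window holds CCAAT at 2 places and GGGCGG at none, and the Slc18a3 window holds GGGCGG at 2 places, both as its reverse complement CCGCCC, and CCAAT at none.

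The LIM-homeodomain genes Isl1 and Isl2 are paralogs, and their windows are shown to compare the pair, with capitals also at TGACGTCA, which reads the same on both strands.
Isl1 (chr13:116309639-116309938, minus strand): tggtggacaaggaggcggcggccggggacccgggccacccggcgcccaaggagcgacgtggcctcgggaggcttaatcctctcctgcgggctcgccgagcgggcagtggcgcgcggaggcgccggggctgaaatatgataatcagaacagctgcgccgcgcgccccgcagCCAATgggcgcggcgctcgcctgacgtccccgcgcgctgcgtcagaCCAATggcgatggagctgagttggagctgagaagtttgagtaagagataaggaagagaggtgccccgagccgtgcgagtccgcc
Isl2 (chr9:55540899-55541198, plus strand): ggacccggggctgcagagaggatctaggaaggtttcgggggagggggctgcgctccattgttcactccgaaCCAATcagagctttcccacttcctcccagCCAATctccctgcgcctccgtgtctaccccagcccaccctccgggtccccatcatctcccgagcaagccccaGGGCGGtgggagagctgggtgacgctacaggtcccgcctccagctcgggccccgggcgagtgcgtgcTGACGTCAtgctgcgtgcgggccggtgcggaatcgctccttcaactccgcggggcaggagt
Both hold CCAAT at 2 places, and the Isl2 window also holds 1 GGGCGG and 1 TGACGTCA. RefSeq windows were at hand for 8 of the 9 genes, all but Ret. Over these 8, searched on both strands, CCAAT was found in 4, GGGCGG in 5, TATAAA in 2 and TGACGTCA in 1. Of all 32851 mouse windows of the same length, 37.4% held CCAAT, 35.7% GGGCGG, 13.6% TATAAA and 1.79% TGACGTCA. A match is a run of letters and not a measured binding site, and the 4 motifs did not overlap one another in the windows printed.

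Each cord library held 15.35 to 23.53 M reads and each MEF library 12.08 to 15.05 M, as recovered from the steps of the deposited values. Morc2a itself was at 4.71, 4.93 and 4.95 FPKM in S87L cord, against 5.61, 5.66 and 5.71 FPKM in wild-type cord. Its level fell by 0.20 on the log2 scale in S87L cord (limma adjusted p = 0.0269), and the table does not separate the alleles. The tissue labels fit the marker genes: all 20 general neuronal markers were tested in cord, with a summed level of 2490 to 2590 FPKM in S87L cord and 2520 to 2630 FPKM in wild-type cord. Meningeal and fibroblast markers summed to 4410 to 4680 FPKM in S87L MEF and 4900 to 4940 FPKM in wild-type MEF.

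In spinal cord none of the 9 genes was called different between the genotypes, with log2 fold changes from -0.16 (Ret) to 0.31 (Isl2). None passed the threshold of a Benjamini-Hochberg adjusted p under 0.05 in limma, where 12.9% of the 15648 genes tested did (5.17% higher and 7.71% lower in S87L cord). At an unadjusted limma p under 0.05 there were 3 of the 9 (Ret, Slc18a3 and Slc5a7), against 29.1% of all genes. The same 3 were called by limma voom on the recovered reads. Voom called more genes in general, 2887 of 15636, against 2016 of 15648 in limma. The log2 fold change, on log2(FPKM + 0.5), was positive for 6 of the 9 and for 7001 of all 15648 genes. Its median was 0.15 over the 9 genes and -0.02 over all genes, and the median of its size was 0.15 over the 9 genes and 0.10 over all genes. The libraries of the genotypes did not overlap for 3 of the 9 genes, with Slc5a7 and Isl1 above and Ret below wild-type in S87L cord, and 35.1% of all genes had no overlap (13.8% above and 21.3% below). In whole cord, fewer cells of a type and less RNA per cell cannot be told apart, which holds for every value given for this tissue.

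**Figure D1:**
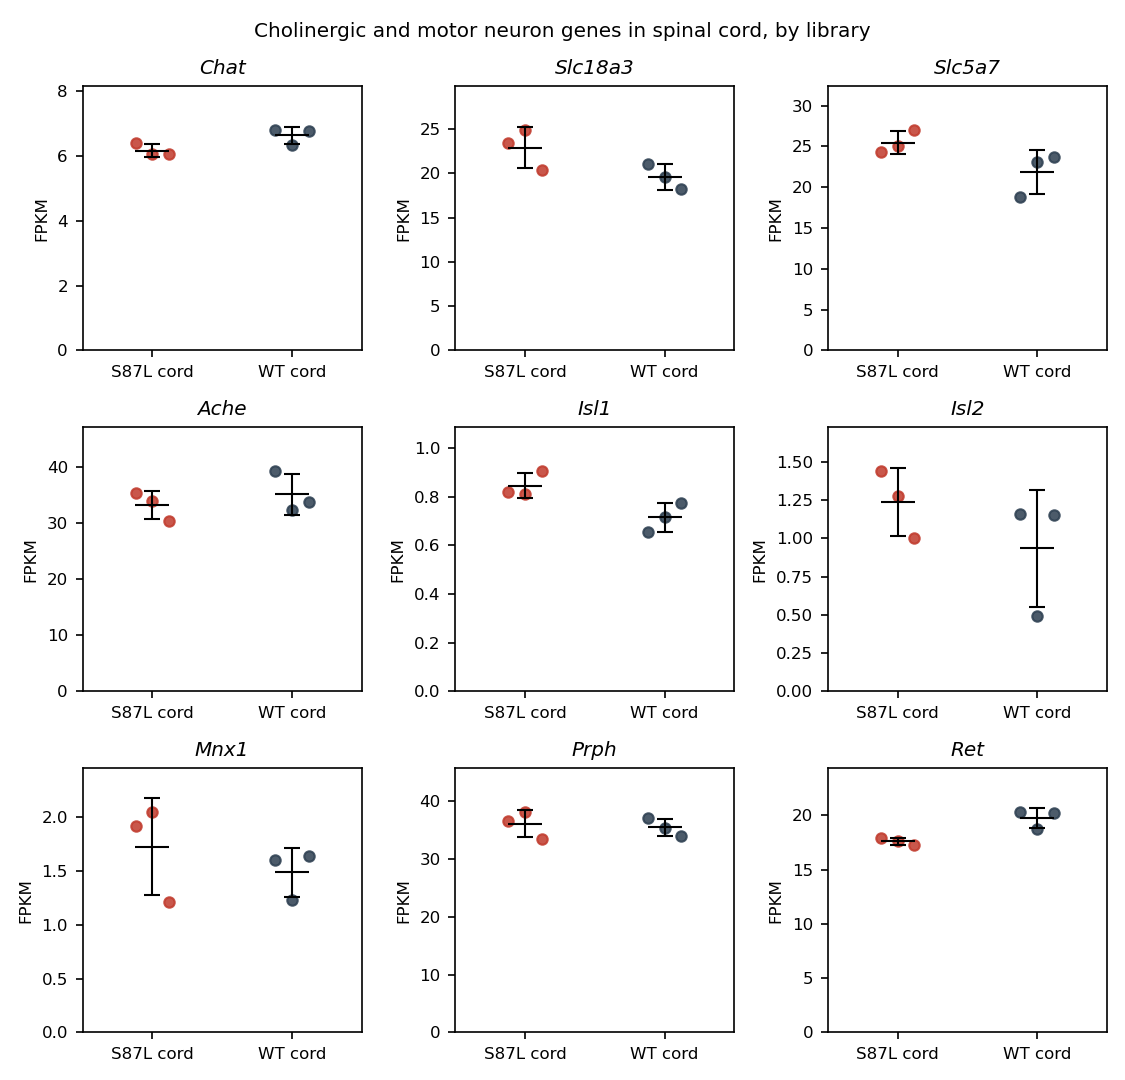
Level (FPKM, linear axes from 0) of each of the 9 genes in every spinal cord library; points are libraries in replicate order, horizontal lines the mean and error bars 1 SD (n = 3 each). Slc5a7 and Isl1 sit higher and Ret lower in all 3 S87L libraries than in any wild-type library, and the points of the other 6 genes overlap.

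The order of the levels was nearly the same in both genotypes. Prph and Ache were highest, with overlapping libraries, at means of 36.1 and 33.2 FPKM in S87L cord and 35.4 and 35.1 FPKM in wild-type cord. Next in S87L cord came Slc5a7, Slc18a3 and Ret, and in wild-type cord Slc5a7, Ret and Slc18a3. Slc18a3 stood above Ret with no overlap of libraries in S87L cord, whereas the libraries of these genes overlapped in wild-type cord. Chat followed at a lower level, apart from its neighbours in both genotypes. The 3 transcription factor genes came last in the order Mnx1, Isl2 and Isl1, with Mnx1 and Isl2 overlapping in S87L cord and Isl2 and Isl1 overlapping in wild-type cord.

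Among the genes that make, store and recover acetylcholine, the enzyme and the transporters did not go the same way. Chat was at 6.39, 6.04 and 6.04 FPKM in S87L cord and at 6.79, 6.32 and 6.77 FPKM in wild-type cord, on 440 to 645 reads a library. Replicates 2 and 3 of S87L cord lie below all wild-type libraries, and replicate 1 lies between wild-type values, so the groups overlap. The log2 fold change of Chat was -0.10 (SE 0.05, 95% interval -0.21 to 0.02, limma adjusted p = 0.232). Slc18a3 was at 23.4, 24.9 and 20.4 FPKM in S87L cord, against 21.1, 19.6 and 18.2 FPKM in wild-type cord. Its lowest S87L library lies below the highest wild-type library. On the log2 scale the difference of Slc18a3 was 0.21 (SE 0.08, 95% interval 0.02 to 0.41, limma adjusted p = 0.139).

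Slc5a7, at chr17:54273590-54299034, was at 24.3, 25.1 and 27.0 FPKM in S87L cord, against 18.8, 23.1 and 23.7 FPKM in wild-type cord, on 1917 to 3217 reads. Every S87L library is above every wild-type library, by a narrow gap, and wild-type replicate 1 is the lowest. Slc5a7 had a log2 fold change of 0.22 (SE 0.09, 95% interval 0.01 to 0.43, limma adjusted p = 0.149), with 0.12 without wild-type replicate 1 and up to 0.28 without another library. Ache, at chr5:137287519-137294466, was at 35.3, 33.9 and 30.4 FPKM in S87L cord and at 39.3, 32.4 and 33.7 FPKM in wild-type cord. These ranges cover each other for most of their width. Ache had a log2 fold change of -0.08 (SE 0.08, 95% interval -0.27 to 0.11, limma adjusted p = 0.571), from -0.13 to 0.00 when 1 library was left out, the 0.00 being without wild-type replicate 1. Ache overlaps the gene loci Mir8116 and Gm42456 and shares 98 exon bases with other genes, and the strand setting of the counting is not given.

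Set against Chat in the same library, both transporters were higher in S87L cord, a ratio chosen after the values were seen. Slc18a3 was 3.66, 4.12 and 3.37 times the FPKM of Chat in S87L cord, against 3.12, 3.09 and 2.69 times in wild-type cord. Slc5a7 was 3.81, 4.16 and 4.48 times Chat in S87L cord, against 2.76, 3.65 and 3.50 times in wild-type cord. The means were 3.72 ± 0.38 in S87L cord and 2.97 ± 0.237 in wild-type cord for Slc18a3 (SD, n = 3 each), and 4.15 ± 0.335 in S87L cord and 3.31 ± 0.475 in wild-type cord for Slc5a7. All 3 S87L ratios exceed all 3 wild-type ratios for both genes. Both ratios divide by Chat, whose own log2 fold change was -0.1, and Slc18a3 by itself overlapped between the genotypes. How many of all genes separate in this way when divided by Chat was not counted. A two-sided exact permutation test over libraries gave p = 0.1 for each ratio, the smallest p that 3 against 3 libraries allow. That p passes no threshold, so the ratios are given as a description.

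**Figure D2:**
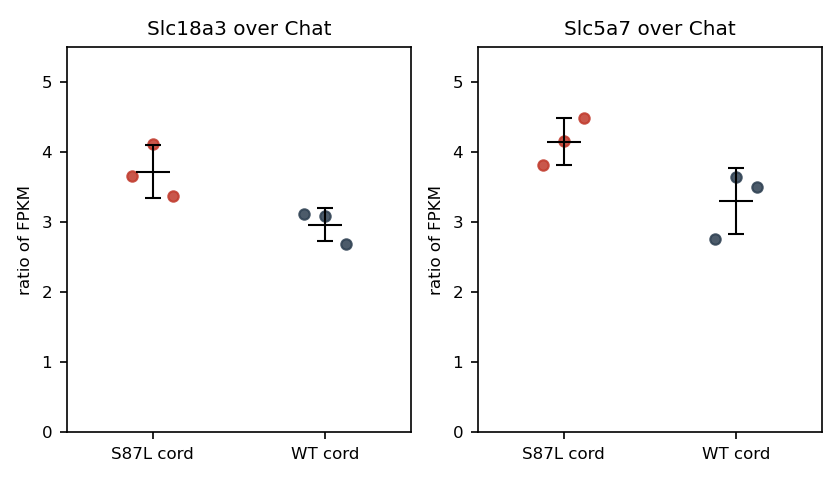
Ratio of FPKM of Slc18a3 (left) and Slc5a7 (right) to FPKM of Chat in each spinal cord library; points are libraries, horizontal lines the mean and error bars 1 SD (n = 3 each). The lowest S87L ratios, 3.37 and 3.81, lie above the highest wild-type ratios, 3.12 and 3.65.

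The 3 transcription factor genes were low in cord, and none was called. Isl1, at chr13:116298281-116309689, was at 0.821, 0.812 and 0.906 FPKM in S87L cord, against 0.656, 0.717 and 0.776 FPKM in wild-type cord. All S87L libraries are above all wild-type libraries, on 64 to 73 reads in S87L cord and 42 to 47 reads in wild-type cord. Isl1 had a log2 fold change of 0.15 (SE 0.09, 95% interval -0.07 to 0.37, limma adjusted p = 0.345). Isl2, at chr9:55538672-55546180, was at 1.44, 1.28 and 1.0 FPKM in S87L cord and at 1.16, 0.493 and 1.15 FPKM in wild-type cord. The low wild-type value, in replicate 2, rests on 16 reads, and the other libraries of both genotypes overlap. For Isl2 the log2 fold change was 0.31 (SE 0.21, 95% interval -0.18 to 0.81, limma adjusted p = 0.379), 0.06 without that library, and up to 0.43 without another.

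Mnx1, at chr5:29473034-29478470, was at 1.92, 2.05 and 1.21 FPKM in S87L cord and at 1.60, 1.23 and 1.64 FPKM in wild-type cord. The S87L libraries spread more widely than the wild-type ones and enclose them. For Mnx1 the log2 fold change was 0.15 (SE 0.16, 95% interval -0.23 to 0.53, limma adjusted p = 0.594). Leaving out 1 library at a time, it ran from 0.04 without S87L replicate 2 and 0.05 without wild-type replicate 2 to 0.33 without S87L replicate 3. The 1272, 1243 and 1393 genes of like mean level to Isl1, Isl2 and Mnx1 had median SEs of 0.13, 0.11 and 0.09, so Isl2 and Mnx1 varied more between libraries than the median gene of their level, and 8.88%, 11.6% and 13.9% of those genes were called.

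Prph and Ret, the structural and the receptor gene of the group, were measured with many more reads. Prph, at chr15:99055174-99058978, was at 36.6, 38.1 and 33.5 FPKM in S87L cord and at 37.0, 35.3 and 34.0 FPKM in wild-type cord. The S87L libraries lie on both sides of the wild-type ones. Prph had a log2 fold change of 0.02 (SE 0.06, 95% interval -0.11 to 0.15, limma adjusted p = 0.823). Ret, at chr6:118151745-118197718, was at 17.9, 17.6 and 17.3 FPKM in S87L cord, against 20.3, 18.7 and 20.2 FPKM in wild-type cord, on 1875 to 2702 reads. All S87L libraries are below all wild-type libraries, and the S87L libraries lie closer together.

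Ret came nearest to the threshold of the 9 genes. Its mean was 17.6 ± 0.274 FPKM in S87L cord and 19.7 ± 0.87 FPKM in wild-type cord (SD, n = 3 each). The log2 fold change of Ret was -0.16 (SE 0.04, 95% interval -0.26 to -0.06), a ratio of 0.895, with a limma adjusted p of 0.0522. It kept its sign in 17 of 17 alternative settings and passed the threshold in 5 of them, with adjusted p-values from 0.0252 to 0.156. Without wild-type replicate 2, the lowest wild-type library, the difference was -0.20 (limma adjusted p = 0.0415).

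**Figure D3:**
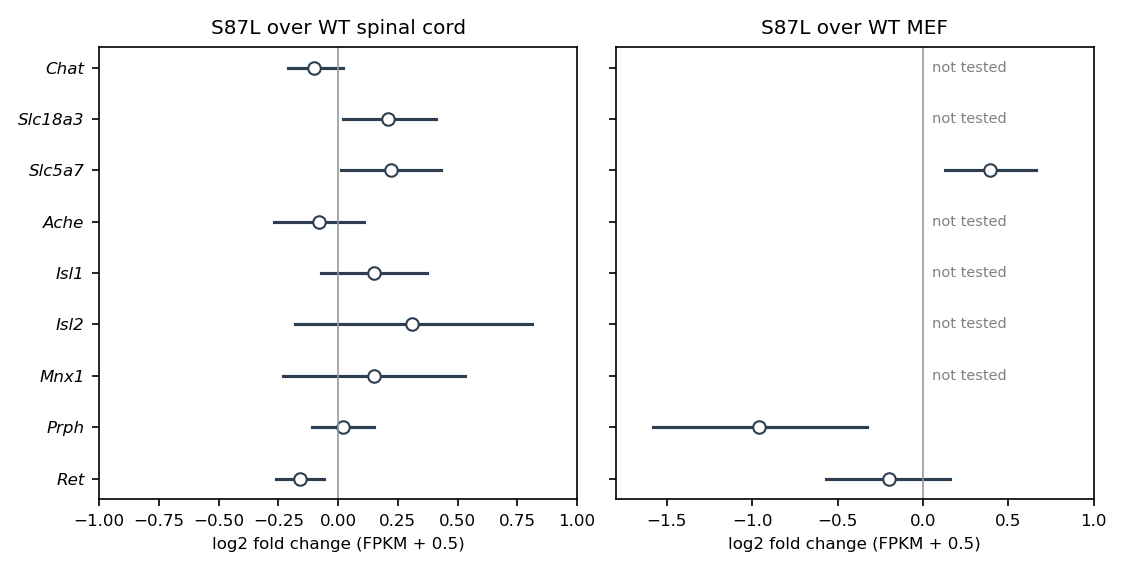
Log2 fold change of S87L over wild-type on log2(FPKM + 0.5) in spinal cord (left) and MEF (right; the axes differ in range); open points are limma estimates and bars their 95% intervals. No gene passed an adjusted p under 0.05 in either tissue, Ret is closest in cord at -0.16, and 6 of the 9 genes were too low to be tested in MEF.

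Most skeletal muscle and caudal Hox genes in these libraries differed between the genotypes by far more than the 9 genes did. The median of the red blood cell genes lay within the range of the 9 genes. Of 15 skeletal muscle genes tested, 14 were called higher and 0 lower in S87L cord, with a median log2 fold change of 1.67. All 17 listed genes summed to 226 to 232 FPKM in S87L cord and 146 to 159 FPKM in wild-type cord. Most of both sums came from Pvalb, which spinal interneurons also express and which was not called. It was at means of 133 FPKM in S87L cord and 131 FPKM in wild-type cord. Acta1, skeletal muscle actin, was at 20.6 ± 1.19 FPKM in S87L cord and 3.96 ± 0.773 FPKM in wild-type cord (SD, n = 3 each). Of 12 meningeal and fibroblast genes, 9 were called higher and 0 lower (median 0.61), with sums of 90.3 to 95.7 FPKM in S87L cord and 54.6 to 56.4 FPKM in wild-type cord. Of 9 microglial genes, 7 were called higher and 0 lower (median 0.37; 358 to 369 FPKM in S87L cord, 277 to 299 FPKM in wild-type cord), and of 5 red blood cell genes 3 were called higher and 0 lower (median 0.26; 409 to 447 FPKM in S87L cord, 336 to 371 FPKM in wild-type cord). All 6 tested Hox genes of groups 9 and 10, which mark position along the cord, were called lower, with a median of -1.31 and sums of 34.9 to 38.9 FPKM in S87L cord and 69.0 to 75.8 FPKM in wild-type cord. The part of these differences in the values of the 9 genes was not tested.

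Lists of other neurons and glia were closer to balance. Among general neuronal markers 0 of 20 were called higher and 2 lower (Thy1 and Syt1), with a median of -0.02. The call of Thy1 was lost without any of 4 libraries and that of Syt1 without any of 5. Among 12 tested interneuron genes 0 were called higher and 2 lower, with a median of -0.08 and sums of 229 to 239 FPKM in S87L cord and 242 to 247 FPKM in wild-type cord. These were Gad1, for GABA synthesis, and Slc17a7, a vesicular glutamate transporter at 0.401 ± 0.0727 FPKM in S87L cord and 2.06 ± 0.261 FPKM in wild-type cord (SD, n = 3 each). The call of Gad1 was lost without any of 5 libraries, and that of Slc17a7 held without any single library. Slc17a7 was under the filter of 0.5 FPKM in all S87L cord libraries and passed it through the wild-type group alone. With median ratio scaling the calls of Thy1, Syt1 and Gad1 were lost as well. Sensory neurons of the dorsal root ganglion share Prph, Ret and Isl1 with motor neurons. Of 8 sensory genes tested, 0 were called by limma and 2 had an unadjusted p under 0.05, with a median of -0.07. Their list summed to 167 to 170 FPKM in S87L cord and 160 to 173 FPKM in wild-type cord, mostly from Pvalb, which spinal interneurons also express. Ntrk3 was at means of 4.1 FPKM in S87L cord and 4.84 FPKM in wild-type cord. Its log2 fold change was -0.21 (limma adjusted p = 0.0569). Scn9a was at -0.35 (limma adjusted p = 0.106), P2rx3 at 0.25 (limma adjusted p = 0.272) and Pou4f1 at -0.10 (limma adjusted p = 0.372). Among the genes below the filter, Mrgprd, a gene of some nociceptors, was at 0 in all cord libraries. Scn10a was at means of 0.00368 FPKM in S87L cord and 0.00517 FPKM in wild-type cord. Schwann cell genes were called higher in 4 and lower in 0 of 9 (median 0.09; sums 2200 to 2330 FPKM in S87L cord, 2380 to 2470 FPKM in wild-type cord). Astrocyte genes were called higher in 2 and lower in 1 of 7 (median 0.06), and oligodendrocyte genes higher in 1 and lower in 1 of 7 (median -0.10). Of 5 sex-linked genes only Xist was high enough to be tested; it was called lower, with a log2 fold change of -0.53 (limma adjusted p = 0.00447), and the 4 Y-linked genes were at or near 0 in all cord libraries.

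After a rescaling of the libraries on the neuronal markers, 0 of the 9 genes were called in cord. The difference of Ret was then -0.15 (limma adjusted p = 0.051) and that of Slc18a3 0.22 (limma adjusted p = 0.096).

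Around Ret, the coreceptor gene Gfra4 and the cell adhesion gene Ncam1 fell in S87L cord. Gfra4, which encodes the coreceptor that persephin uses with RET, was at 6.14 ± 0.505 FPKM in S87L cord and 9.23 ± 0.283 FPKM in wild-type cord (SD, n = 3 each). Its S87L libraries ranged from 5.57 to 6.53 FPKM, all below the wild-type libraries at 8.99 to 9.54 FPKM. Gfra4 fell by 0.55 on the log2 scale (SE 0.06, limma adjusted p = 0.00273), a call that held when any single cord library was left out (highest adjusted p = 0.0152). Ncam1, whose product also binds GDNF together with GFRA1, was at 42.3 ± 0.675 FPKM in S87L cord and 48.6 ± 0.903 FPKM in wild-type cord. It fell by 0.20 on the log2 scale (SE 0.03, limma adjusted p = 0.0103), with an adjusted p of 0.0542 without S87L replicate 2. In all, 6 of 11 ligand and coreceptor genes were tested in cord, 0 were called higher and 2 lower, and the median was -0.11. Gfra1 and Gfra2, the coreceptors that GDNF and neurturin favour, both had log2 fold changes of -0.10 (limma adjusted p = 0.25 and 0.252). Sorl1, a sorting receptor for GDNF and GFRA1, was at -0.12 (limma adjusted p = 0.0741). The ligand genes Gdnf, Artn and Pspn were below the filter in cord.

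Other genes of acetylcholine handling and reception gave few calls, most of them fragile. Of 8 further genes of choline supply and of acetylcholine breakdown, 1 was called higher and 1 lower, with a median of 0.00. Both encode choline transporter-like proteins: Slc44a1 rose by 0.15 (limma adjusted p = 0.0308), at 41.8 ± 0.754 FPKM in S87L cord and 37.7 ± 0.79 FPKM in wild-type cord, and Slc44a2 fell by 0.20 (limma adjusted p = 0.0417), at 4.90 ± 0.128 FPKM in S87L cord and 5.72 ± 0.269 FPKM in wild-type cord (SD, n = 3 each). Of 10 neuronal acetylcholine receptor genes and regulators tested, 0 were called higher and 1 lower, with a median of -0.03. This was the nicotinic subunit gene Chrnb2, which fell by 0.16 (limma adjusted p = 0.049), while its usual partner Chrna4 was at -0.12 (limma adjusted p = 0.142). The calls of Slc44a1, Slc44a2 and Chrnb2 were lost when any single cord library was left out, with adjusted p-values of up to 0.118, 0.13 and 0.143.

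Of the muscle receptor and endplate genes, which act mainly in muscle, only Dok7 and Lrp4 of 9 were tested, with a median of 0.08. Lrp4, the receptor for the nerve-derived signal agrin, was at 5.35 ± 0.0822 FPKM in S87L cord and 4.44 ± 0.247 FPKM in wild-type cord (SD, n = 3 each). It rose by 0.24 (limma adjusted p = 0.0255), and the call was lost without 5 of the 6 libraries in turn (highest adjusted p = 0.0997). Dok7 was at -0.09 (limma adjusted p = 0.558). The muscle subunit genes Chrna1 and Chrng were at or near 0 in cord, beside the higher skeletal muscle genes given above.

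Among other transcription factor genes of motor neurons, 14 of 20 were tested, 1 was called higher and 0 lower, and the median was 0.04. The one called was Etv1, an ETS factor of some motor pools and of proprioceptive sensory neurons, at 11.1 ± 0.246 FPKM in S87L cord and 8.64 ± 0.379 FPKM in wild-type cord (SD, n = 3 each). Its S87L libraries, at 10.9 to 11.4 FPKM, are all above the wild-type libraries, at 8.21 to 8.91 FPKM. Etv1 rose by 0.35 (SE 0.05, limma adjusted p = 0.00479), and by leaving out 1 library at a time its adjusted p stayed at or under 0.0266. Esrrb, a nuclear receptor gene, was at 0.31 (limma adjusted p = 0.0562). Nkx6-1, a homeodomain factor of motor neuron progenitors, was at 0.22 (limma adjusted p = 0.116), and Olig2, which motor neuron progenitors share with oligodendrocytes, at 0.17 (limma adjusted p = 0.27).

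Of 24 tested genes of motor neuron subtype and maturation, 3 were called higher and 2 lower, with a median of -0.03. The retinoic acid enzyme gene Aldh1a2, used by limb motor neurons and also by the meninges, rose by 0.73 (limma adjusted p = 8.50e-04), at 5.42 ± 0.104 FPKM in S87L cord and 3.08 ± 0.254 FPKM in wild-type cord (SD, n = 3 each). It is also one of the meningeal and fibroblast markers that were higher in the same libraries. Sv2a, a synaptic vesicle protein gene, fell by 0.24 (limma adjusted p = 0.00364), and Wnt7a, for a secreted WNT ligand, fell by 0.50 (limma adjusted p = 0.00965). Bcl6, a transcriptional repressor gene, rose by 0.26 (limma adjusted p = 0.0184), and lost its call without any of 3 libraries. Of the 7 intermediate filament genes beside Prph, 0 were called higher and 2 lower, with a median of -0.02. Nefm, the medium neurofilament gene, fell by 0.13 (limma adjusted p = 0.0338), at 269 ± 8.31 FPKM in S87L cord and 295 ± 2.37 FPKM in wild-type cord (SD, n = 3 each), and the astrocyte filament gene Gfap fell by 0.12 (limma adjusted p = 0.0438). Both calls were lost without any single cord library, with adjusted p-values of up to 0.105 and 0.15.

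**Figure D4:**
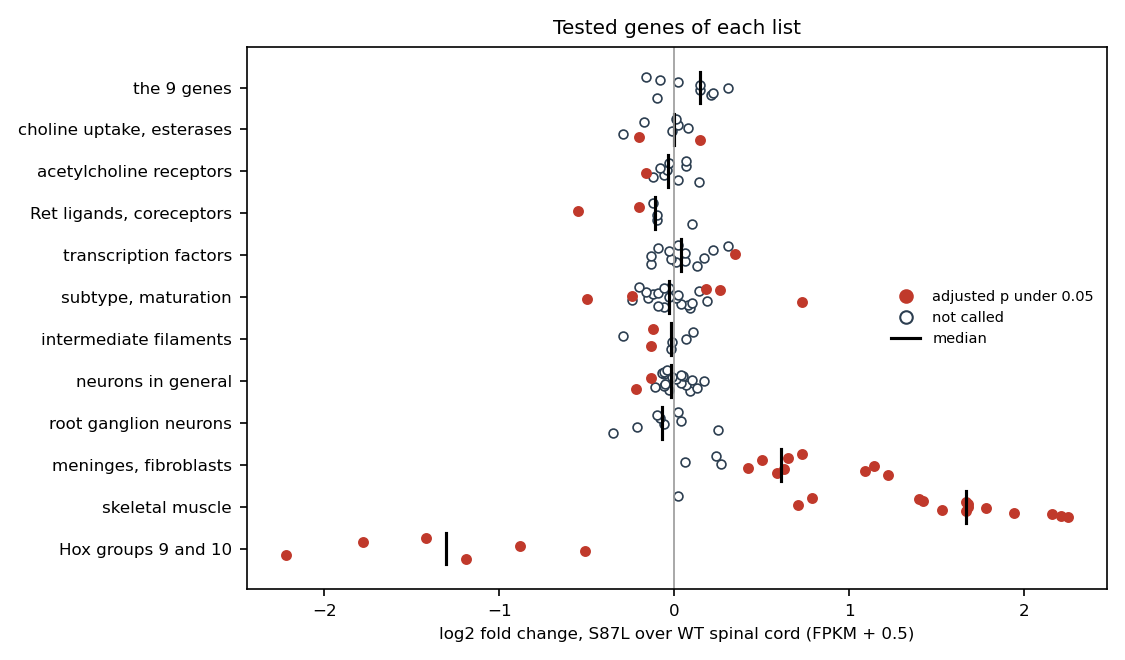
Log2 fold change of S87L over wild-type spinal cord on log2(FPKM + 0.5) for the tested genes of 12 lists; each point is a gene, filled where the limma adjusted p was under 0.05, and black bars are list medians. The 9 genes, at a median of 0.15 with none filled, sit near 0 beside skeletal muscle at 1.67 and the Hox genes at -1.31.

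Over the 6 cord libraries, Chat and Ret had a similar profile, with a Pearson correlation of log2(FPKM + 0.5) of 0.95. Among 13651 genes with a mean of at least 1 FPKM in cord, Ret ranked 67 by its correlation with Chat and Ache ranked 2454 at 0.685. Slc18a3 ranked 10677 at -0.497, Slc5a7 ranked 12610 at -0.768, and Isl2, Mnx1 and Prph lay between -0.043 and 0.099. Slc5a7 and Isl1 had a correlation of 0.94 with each other, and Slc18a3 and Prph one of 0.81. The 5 genes closest to Chat were Kyat1, Mthfsl, Trmu, Sil1 and Pcdhga5, at 0.98 to 0.984. Pcdhga5 is one of a cluster of near-identical genes and may share reads with them. These values describe 6 libraries of one tissue but of both genotypes, which also differ in depth. Any genotype difference is therefore part of each correlation, and no test was made of them.

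In MEF the cholinergic and motor neuron genes were off or low. Chat and Mnx1 had 0 reads in all 5 MEF libraries. Over these libraries a count of 0 allows a mean of up to 0.00953 FPKM for Chat and 0.0199 FPKM for Mnx1, at 3 reads over the 5 libraries and for counting error alone. Slc18a3 had 1 read in S87L MEF replicate 1 and 0 in the other libraries, and Ache had 1 read in each S87L library and 6, 3 and 1 in the wild-type libraries. Isl1 was at 0.293 and 0.484 FPKM in S87L MEF and at 0.388, 0.296 and 0.439 FPKM in wild-type MEF, on 16 to 25 reads. Isl2 had 3 and 2 reads in S87L MEF, against 7, 5 and 9 reads in wild-type MEF.

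Slc5a7, Prph and Ret passed the filter in MEF, and 0 of these 3 were called by limma, where 11.2% of 13773 genes were (4.91% higher and 6.32% lower in S87L MEF). At an unadjusted limma p under 0.05 there were 2 of the 3 (Slc5a7 and Prph), against 27.9% of all genes. The same 2 were called by limma voom on the recovered reads. In MEF voom called 2777 of 13767 genes, against 1547 of 13773 in limma. Slc5a7 was at 3.15 and 2.42 FPKM in S87L MEF, against 1.91, 1.96 and 2.10 FPKM in wild-type MEF. Both S87L libraries are above the wild-type ones, as in cord, and S87L replicate 1 stands highest. The genotypes did not overlap for any of the 3 tested genes, with Slc5a7 above and Prph and Ret below wild-type, and 45.8% of all genes tested in MEF had no overlap (20.8% above and 25.0% below). The log2 fold change of Slc5a7 in MEF was 0.39 (SE 0.11, 95% interval 0.13 to 0.66, limma adjusted p = 0.0719). It was 0.23 without S87L replicate 1 (limma adjusted p = 0.222) and 0.55 without S87L replicate 2 (limma adjusted p = 0.0291). Ret was at 0.707 and 0.451 FPKM in S87L MEF, against 0.747, 0.716 and 0.741 FPKM in wild-type MEF. Both S87L values are below the wild-type ones, 1 of them narrowly, and the log2 fold change was -0.20 (SE 0.15, limma adjusted p = 0.433), with -0.38 without S87L replicate 1 and -0.03 without S87L replicate 2.

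Of the 3 genes tested in both tissues, Prph had the widest gap between its log2 fold changes, on very few MEF reads. It was at 0.0363 and 0.305 FPKM in S87L MEF, against 0.659, 1.14 and 0.592 FPKM in wild-type MEF, which is 1 and 7 reads against 18, 31 and 17 reads. Both S87L libraries are below all wild-type libraries, and Prph passed the filter in MEF through the wild-type group alone, so its values in MEF and the interaction are given as a description and support no difference. The log2 fold change of Prph was -0.96 in MEF (SE 0.26, 95% interval -1.58 to -0.33, limma adjusted p = 0.0663) and 0.02 in cord. The interaction term, cord minus MEF, was 0.98 (SE 0.26, 95% interval 0.41 to 1.55, limma adjusted p = 0.0345), where 13.2% of 12389 genes were called (7.14% positive and 6.03% negative). It was called in 11 of the 19 alternative settings in which it could be tested, among them the fit with no filter (limma adjusted p = 0.0487). Its size moved with the pseudocount, at 1.91 with a pseudocount of 0.1 and 0.64 with one of 1. The call was lost when any wild-type cord library, S87L cord replicate 1 or 2, or S87L MEF replicate 1 was left out, with adjusted p-values of up to 0.106, and without wild-type MEF replicate 2 Prph was below the filter. The interaction term was -0.17 for Slc5a7 (95% interval -0.49 to 0.15, limma adjusted p = 0.487) and 0.05 for Ret (95% interval -0.20 to 0.29, limma adjusted p = 0.837). For the other 6 genes the term was not tested.

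**Figure D5:**
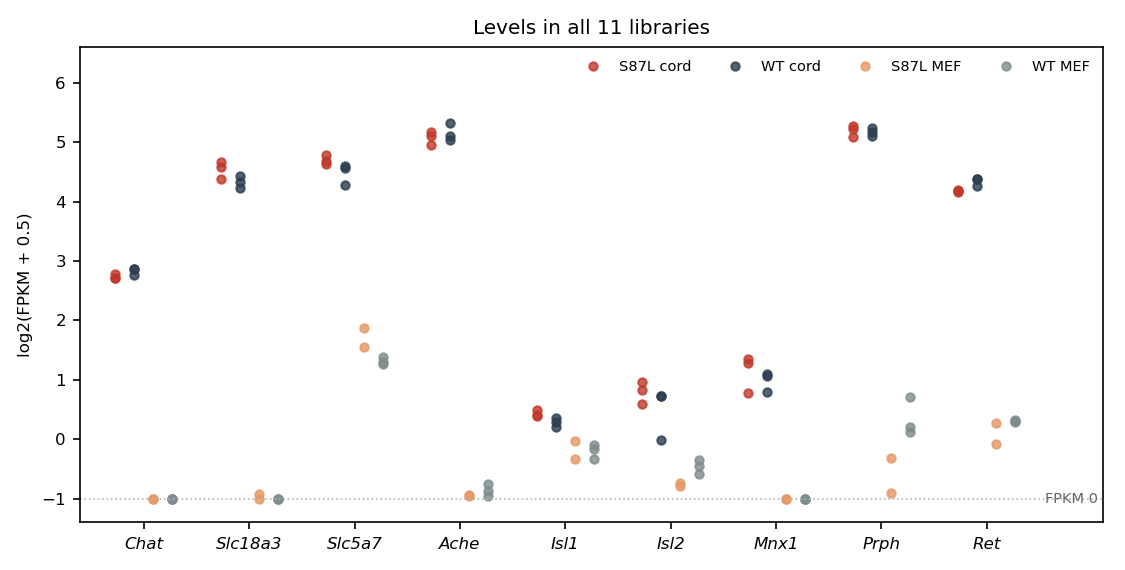
Level of the 9 genes, as log2(FPKM + 0.5), in all 11 libraries; each point is a library, in the order S87L cord, wild-type cord, S87L MEF and wild-type MEF for each gene, and the dotted line marks an FPKM of 0. Chat and Mnx1 lie on the line in all MEF libraries, and the Prph points of S87L MEF, at 0.0363 and 0.305 FPKM, lie below those of wild-type MEF.

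Of the genes around Ret, 8 were tested in MEF, 0 were called higher and 2 lower. Gfra2 was at 1.99 ± 0.21 FPKM in S87L MEF (SD, n = 2) and 4.82 ± 0.248 FPKM in wild-type MEF (SD, n = 3), and fell by 1.10 on the log2 scale (limma adjusted p = 0.00111). Gfra4, which fell in cord, also fell in MEF, by 0.73 (limma adjusted p = 0.0303), at means of 0.774 FPKM in S87L MEF and 1.61 FPKM in wild-type MEF, and lost this call without any of 4 libraries. The genotype difference of Gfra2 itself differed between tissues, with an interaction term of 1.0 (limma adjusted p = 5.21e-05), and that of Gfra4 was not shown to differ (0.18, limma adjusted p = 0.487). In MEF, meningeal and fibroblast markers were called lower in 4 and higher in 0 of 12.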

How the data were processed

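RNA was extracted with TRIzol and libraries were made with the strand-specific NEBNext Ultra II Directional kit, per the labels' protocols. The authors deposited 1 table of FPKM values for 55487 Ensembl identifiers. HISAT2 2.2.1, HTSeq 0.11.3, Picard 2.25.5 and Trimmomatic 0.39 were used with GRCm38, per the submitters' processing notes, without an annotation release or strand setting. Symbols and positions are from GENCODE M21 (55227 identifiers matched, 260 did not). With its exon lengths, 98.51% to 98.6% of the deposited FPKM values in a library came to within 0.05 of a whole read number.

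Each tissue was fitted alone in limma 3.58.1 (R 4.3.3, trend and robust) on log2(FPKM + 0.5), keeping genes that averaged at least 0.5 FPKM in its libraries. Fold changes are S87L over wild-type, and on this scale are too small for low genes. SE is limma's moderated standard error, intervals are 95%, and p-values were adjusted over all genes tested with the Benjamini-Hochberg method and called under 0.05. The difference between tissues was the interaction term of a fit of all 11 libraries, keeping genes that averaged at least 0.5 FPKM in each tissue. The fits were tested on simulated data. Alternatives were other pseudocounts, filters, scalings, weights and a replicate block, leaving out each library, and limma voom on the recovered reads, which was added after seeing the data.

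The 9 genes, 7 lists of related genes and 13 lists of cell type markers were chosen with earlier results of these data known, so the lists are no independent support. Named in each list were up to 4 genes with the smallest unadjusted p in cord. Outside this rule, Gfra2, Pvalb and genes below the filter were named after their values were seen.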

Additional observations from a re-analysis of the deposited data

Results flagged for a closer look

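For Prph the interaction term, cord minus MEF, was 0.98 on the log2 scale (limma adjusted p = 0.0345). It rests on 1 and 7 reads in the S87L MEF libraries, against 18, 31 and 17 reads in the wild-type MEF libraries, and Prph passed the filter in MEF through the wild-type group alone, so it supports no difference between the tissues. It was called in 11 of 19 alternatives. In cord the gene was at means of 36.1 FPKM in S87L and 35.4 FPKM in wild-type libraries. No group had 4 or more libraries, so single libraries were not tested for standing apart from their group.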

How the results depend on the processing

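Over the 9 genes, 140 of 152 values in cord, 39 of 42 in MEF and 49 of 60 of the interaction kept their sign and their side of the threshold across the alternatives. The genes called in cord, 2016 in all, numbered 3098 with array weights, 2887 with voom on recovered reads, and 838 to 1637 without 1 library. The split of calls moved with scaling, which shifted the median of all genes by less than 0.1: 809 higher and 1207 lower became 1230 higher and 874 lower with median ratio scaling. Of the 9 genes, 0 were called in cord, against 1 with a mean of at least 1 FPKM (Ret, adjusted p = 0.0491), 1 with quantile normalization (Ret, 0.0268), 2 with array weights (Ret, 0.0252; Slc18a3, 0.0246), 3 with voom (Ret, 0.0296; Slc18a3, 0.0465; Slc5a7, 0.0327), and 0 to 1 without 1 library. The value of Prph in cord was -0.02 to 0.08 without 1 library: it reversed to -0.01 with quantile normalization and without wild-type replicate 3 and to -0.02 without S87L replicate 2, and Ache was at 0.00 without wild-type replicate 1. In MEF, 1547 genes were called, against 788 with no filter, 2777 with voom, and 565 to 1753 without 1 library; of the 3 genes tested, 0 were called, 2 with voom (Slc5a7, 0.48, 0.00431; Prph, -2.63, 0.00572) and 0 to 1 without 1 library. The interaction gave 1632 calls; Prph was called, but 0 genes of the 9 were with a pseudocount of 0.1 (Prph, 1.91, adjusted p = 0.0563), with quantile normalization (0.75, 0.0613) and with a mean of at least 1 FPKM, where Prph was not tested, and 0 to 1 without 1 library. The Ret interaction reversed to -0.01 with a pseudocount of 1, to -0.07 with quantile normalization and to -0.13 without S87L MEF replicate 2 (-0.13 to 0.22 without 1 library). The split of interaction calls, 885 positive and 747 negative, was 1217 and 560 with median ratio scaling. The log2 differences of Slc18a3 over Chat (0.32) and of Slc5a7 over Chat (0.33) were 0.25 to 0.39 and 0.21 to 0.41 without 1 library. The causes were not tested.

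With 2 or 3 libraries a group, it could not be settled whether replicate numbers pair the libraries. Deviations of same-numbered libraries correlated at 0.15, -0.05 and 0.11 in cord and at -0.07 and -0.03 in MEF. S87L cord replicates 1 and 3 correlated best with their own number. S87L cord replicate 2 and S87L MEF replicates 1 and 2 did not. With a replicate block, 1663 genes were called in cord, 182 in MEF and 960 in the interaction, and of the 9 genes 0, 0 and 1 were. Few reads stand behind Isl1, Isl2 and Mnx1 in cord (16 to 105 a library) and behind Prph in MEF (1 to 31); the part of depth in their spread was not tested.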
